A study of Arabidopsis thaliana with 4 samples.

Results

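The genes described here belong to the families that loosen, cut, rejoin and acetylate the plant cell wall: the expansins, the xyloglucan endotransglucosylase/hydrolases (XTH) and the TRICHOME BIREFRINGENCE-LIKE proteins (TBL). They were chosen by symbol alone, as every probe set with exactly 1 annotated gene whose symbol starts with EXPA, EXPB, EXLA, EXLB, XTH or TBL and a number. This gave 49 of the 13350 genes with a named probe set: 10 EXPA, 4 EXPB, 3 EXLA, 1 EXLB, 9 XTH and 22 TBL genes. The gene table lists 105 genes with such symbols, and those without a named probe set were not analysed here. The annotation used gives no gene for 8730 of the 22746 gene probe sets. A gene without a named probe set may therefore still be on the array. Each of the 49 genes had 1 probe set, so no choice between probe sets of a gene arose. Only that of TBL32 is marked as shared between genes, so its signal may include transcripts of relatives.

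A growing plant cell is held by a wall of cellulose fibres tied together by xyloglucan and embedded in pectin, with xylan and mannan beside them. Expansins loosen the contacts between these polymers without cutting them, and are known for letting walls extend at acid pH. XTH enzymes cut xyloglucan chains and either rejoin them to other chains or leave them cut. TBL proteins include enzymes that place acetyl groups on xylan, mannan and xyloglucan. CBF2 is a transcription factor of the cold response, and plants with much CBF protein are known to stay small, which is the background to asking how wall genes behave in them.

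RNA from whole 10-day-old Arabidopsis thaliana plants was measured on 4 Affymetrix ATH1 arrays. Of these, 2 arrays held wild type plants of the ecotype Ws-2, and 2 held plants labelled 35S::CBF2, in which the broadly active 35S promoter of a plant virus drives CBF2 in addition to the plant's own gene. The labels do not name the ecotype of the 35S::CBF2 plants. Their titles carry the sample codes E24 and E2, while the protocols of both samples name E2. Whether these plants are different transgenic lines is left unsettled. Both titles say replicate 1, so the numbers used here are assigned by listing order: 35S::CBF2 replicate 1 is the array coded E24 and replicate 2 the array coded E2. All plants were stratified for 4 days at 4 °C and then grown on agar plates at 24 °C in continuous light (100 µmol per square metre and second); the labels list no cold treatment after that. Each group is described as 4 plates of about 100 plants harvested separately, and the labels do not say which plate gave which array, so a p-value here reflects the spread between arrays alone, which may be technical. CBF2 has no named probe set in the annotation used. Whether an unnamed probe set measures it was not looked up, so the level of the transgene was not checked here. Since whole plants were used, fewer cells of a type and less RNA per cell cannot be told apart.

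Values are MAS5 signals on a linear scale, with the same trimmed mean on every array. Across tested probe sets, which are not independent of each other, log2 signals correlated at 0.966 within each group and at 0.922 to 0.940 between groups. Of the arrays, 35S::CBF2 replicate 2 stood apart: its hybridisation spike-ins lay at 1.91 times the wild type mean, against 0.664 times on 35S::CBF2 replicate 1. Green tissue markers were bright on all arrays. Of the 9 listed genes 4 had a named probe set, and their summed signals lay between 17282 and 20556. Of the 11 root markers listed 1 had a named probe set, PYK10. Its signals were 1872 and 1473 in wild type against 1429 and 2046 in 35S::CBF2. None of the 8 flower and pollen markers had a named probe set.

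Of the 49 wall genes, 32 were bright enough on average over all arrays to be tested, and 4 of these passed. EXLA2 and XTH32 were higher in 35S::CBF2, and EXLB1 and TBL45 were lower (limma, Benjamini-Hochberg adjusted p under 0.05 over all 13647 tested probe sets). Among all tested probe sets 3.36% passed, 2.11% higher and 1.25% lower. The other 28 genes did not pass; 11 of the 32 had an unadjusted p under 0.05, against 13.1% of all tested probe sets. A mean difference of at least 2-fold was seen in 7 of the 32 genes (21.9%) and in 3.74% of all tested probe sets. Without 35S::CBF2 replicate 2 only EXLA2 passed, with 0 genes lower. Without 35S::CBF2 replicate 1 there were 3 genes higher, with XTH20 added, and 5 lower, with EXPA8, EXPA15 and XTH16 added. Blocked by the letter of the titles, the fit called 2 genes higher and 5 lower, with EXPA15, TBL37 and XTH16 added. Over all tested probe sets the blocked fit called 661, against 458 without the block. Fits without 1 array take no spread from the group left with 1 array, so calls gained in them are not read as results. The calls of XTH32, EXLB1 and TBL45 did not hold in every such fit. The calls went in both directions, and the median log2 difference of the 32 was -0.10, against -0.04 for all tested probe sets. Over all 49 genes the median was -0.20, against -0.05 for all gene probe sets, dim ones included.

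**Figure D1:**
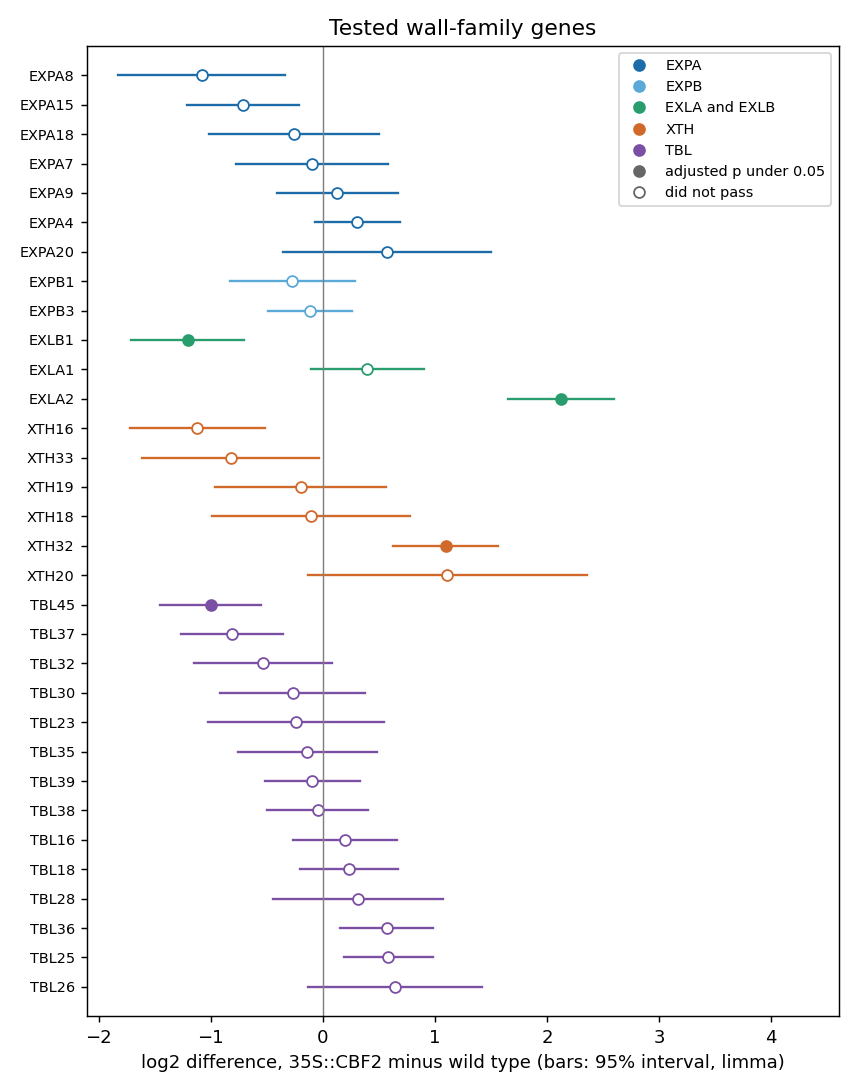
Log2 difference of 35S::CBF2 minus wild type (horizontal axis) for the 32 tested genes, coloured by family, with limma's 95% interval as a bar. Filled points passed at an adjusted p under 0.05: EXLA2 at 2.12 and XTH32 at 1.095 on the right, EXLB1 at -1.20 and TBL45 at -1.001 on the left, while the 28 open points did not pass.

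The expansin-like genes held the largest rise and the largest fall of all the tested wall genes. EXLA and EXLB proteins share the fold of expansins, but no wall-loosening activity has been established for them. EXLA2 (AT4G38400) had signals of 42.3 and 38.7 in wild type against 167 and 186 in 35S::CBF2. The groups were far apart, and each stayed within 1.11-fold between its own arrays. EXLA2 thus rose 4.36-fold (log2 difference 2.12 ± 0.21, SE, n = 2 per group, limma adjusted p = 2.37e-04). It was also the only 1 of the 32 with at least a 2-fold difference in all 4 pairs of a 35S::CBF2 and a wild type array, which 1.68% of all tested probe sets reached. Its call held in all 14 alternative fits, with log2 differences from 1.85 to 2.20.

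EXLB1 (AT4G17030) went the other way, with signals of 111 and 122 in wild type against 56.3 and 45.3 in 35S::CBF2. Both 35S::CBF2 arrays lay below both wild type arrays, a fall of 2.30-fold (log2 difference -1.20 ± 0.23, limma adjusted p = 0.0142). The fall no longer passed without wild type replicate 2 (adjusted p = 0.0889), nor without 35S::CBF2 replicate 2 (0.0744).

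EXLA1 (AT3G45970) had signals of 99.6 and 129 in wild type against 175 and 128 in 35S::CBF2, and the groups overlapped (log2 difference 0.40, 95% interval -0.11 to 0.90). Its direct neighbour in the genome, EXLA3, was dimmer than the highest bacterial control signal of 14.5 on all 4 arrays, so nothing can be said of its response. EXLA1 and EXLA2 differ in their values as given, but the difference between them was not tested.

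**Figure D2:**
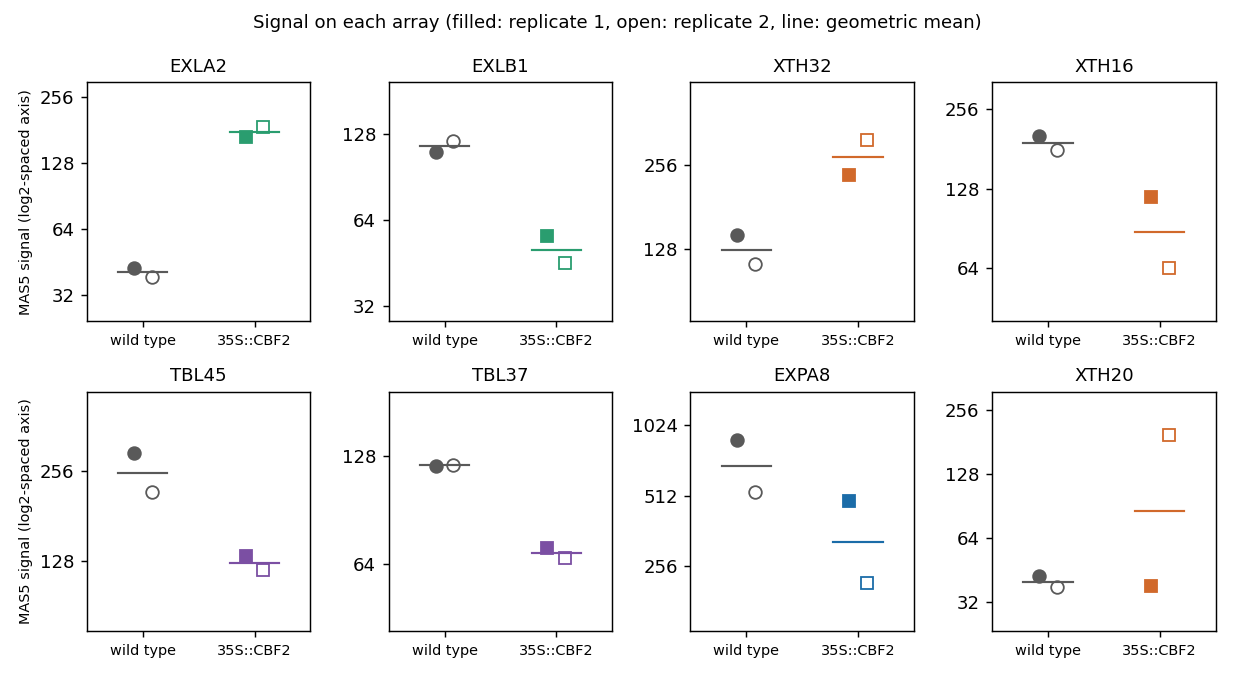
MAS5 signal on each array (vertical axis, log2-spaced, a separate range for each gene) for 8 genes, with wild type in grey circles and 35S::CBF2 in coloured squares, replicate 1 filled, replicate 2 open, and a line at the geometric mean of each group. EXLA2 lies near 40 in wild type and at 167 and 186 in 35S::CBF2, and the XTH20 arrays of 35S::CBF2 lie at 38.1 and 194.

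Among the α-expansins, the classic wall-loosening proteins of acid growth, 7 of 10 genes were tested and none passed (limma; 2 had an unadjusted p under 0.05, both lower). EXPA8 (AT2G40610) had signals of 889 and 530 in wild type against 485 and 217 in 35S::CBF2. The groups did not overlap, but the nearest arrays, at 530 and 485, were close, and each group was wide. Its log2 difference was -1.08 (95% interval -1.82 to -0.34, limma adjusted p = 0.147). The value depended on single arrays of both groups: without 35S::CBF2 replicate 1 the log2 difference was -1.66, and without 35S::CBF2 replicate 2 it was -0.50. It also passed without wild type replicate 2, at -1.45 (0.0317).

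EXPA15 (AT2G03090) also had both 35S::CBF2 arrays below both wild type arrays, with 266 and 340 in wild type against 225 and 150 in 35S::CBF2. Its log2 difference was -0.71 (95% interval -1.21 to -0.21, limma adjusted p = 0.160). It passed in the limma fit blocked by title letter (adjusted p = 0.0302). Without 35S::CBF2 replicate 1 the log2 difference was -1.01, and without replicate 2 it was -0.42.

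EXPA4 (AT2G39700) lay slightly above wild type, with 283 and 255 in wild type against 312 and 353 in 35S::CBF2 (log2 difference 0.31, 95% interval -0.07 to 0.68). EXPA9 had signals of 112 and 73.0 in wild type against 97.3 and 101 in 35S::CBF2, which fell inside the wild type range. EXPA20, at 14.6 and 31.3 in wild type against 32.4 and 31.1 in 35S::CBF2, also overlapped. Its wild type arrays differed 2.14-fold from each other, so its log2 difference of 0.57 lies inside the spread of that group.

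EXPA7 and EXPA18 are known for their part in root hair formation. EXPA7 had signals of 34.2 and 41.7 in wild type against 31.3 and 39.9 in 35S::CBF2, and EXPA18 had 41.5 and 41.2 against 25.6 and 46.7. Both genes overlapped between the groups, with log2 differences of -0.10 (95% interval -0.78 to 0.58) and -0.26 (-1.01 to 0.50), and the sign of each turned without 35S::CBF2 replicate 1, to 0.08 and 0.17. PYK10, the root marker that had a named probe set, had a log2 difference of 0.04.

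The β-expansins, the sister family of the α-expansins, had 2 tested members of 4, and neither passed (0 had an unadjusted p under 0.05). EXPB3 (AT4G28250) had signals of 247 and 240 in wild type against 224 and 224 in 35S::CBF2. These arrays were close within each group, and the log2 difference was -0.12, with a 95% interval of -0.49 to 0.26. EXPB1 had 87.6 and 63.6 in wild type against 56.7 and 67.4 in 35S::CBF2, and its groups overlapped (log2 difference -0.27, 95% interval -0.83 to 0.28). For these genes, changes as large as the ends of the intervals remain compatible with the data of 2 arrays per group.

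Among the XTH genes, 6 of 9 were tested and 1 passed, XTH32, higher in 35S::CBF2. A mean difference of at least 2-fold was seen in 3 of the 6: XTH32 above wild type, XTH16 below it, and XTH20 above it on 1 array. XTH32 (AT2G36870) belongs to the group of XTH proteins whose studied members mainly hydrolyse xyloglucan. It had signals of 144 and 113 in wild type against 236 and 315 in 35S::CBF2, without overlap, and rose 2.14-fold (log2 difference 1.095 ± 0.21, limma adjusted p = 0.0160). The rise no longer passed when 35S::CBF2 replicate 2 (adjusted p = 0.112), wild type replicate 2 (0.0822) or the intensity trend of the test (0.0905) was left out.

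XTH16 (AT3G23730) pointed the other way, with signals of 202 and 179 in wild type against 119 and 64.2 in 35S::CBF2. The groups did not overlap, but the 35S::CBF2 arrays differed 1.86-fold from each other. With a log2 difference of -1.12 (95% interval -1.72 to -0.51) it just missed the threshold (limma adjusted p = 0.0548). It passed in limma with an offset before the log (adjusted p = 0.0471) and in the fit blocked by title letter (0.0150). Without 35S::CBF2 replicate 1 its log2 difference was -1.57, and without replicate 2 it was -0.67.

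XTH20 (AT5G48070) had signals of 42.5 and 37.5 in wild type against 38.1 and 194 in 35S::CBF2. The rise was seen on 35S::CBF2 replicate 2 and not on replicate 1, which lay inside the wild type range. The 5.10-fold gap between these arrays was the widest of any tested wall gene, and the mean log2 difference of 1.11 did not pass (95% interval -0.14 to 2.35, limma adjusted p = 0.464). Set against wild type without the other 35S::CBF2 array, replicate 2 gave a log2 difference of 2.28 and replicate 1 gave -0.07. XTH20 is known from the healing of cut stems.

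XTH33, which codes for a protein held at the plasma membrane, had signals of 40.7 and 33.8 in wild type against 17.6 and 24.996 in 35S::CBF2. The groups did not overlap, and the log2 difference of -0.82 did not pass (95% interval -1.61 to -0.04, limma adjusted p = 0.352). The 35S::CBF2 mean of 21.0 lay below the filter level of 24.8, and the wild type mean of 37.1 above it. XTH33 thus entered the test through its wild type signal, and the missing overlap alone is not read as a fall. The neighbouring genes XTH18 and XTH19, both known for expression in roots, overlapped between the groups. XTH18 had 138 and 49.0 in wild type against 66.1 and 88.4 in 35S::CBF2, so that both 35S::CBF2 arrays lay between the wild type arrays. XTH19 had 28.7 and 34.2 in wild type against 32.0 and 23.3 in 35S::CBF2.

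**Figure D3:**
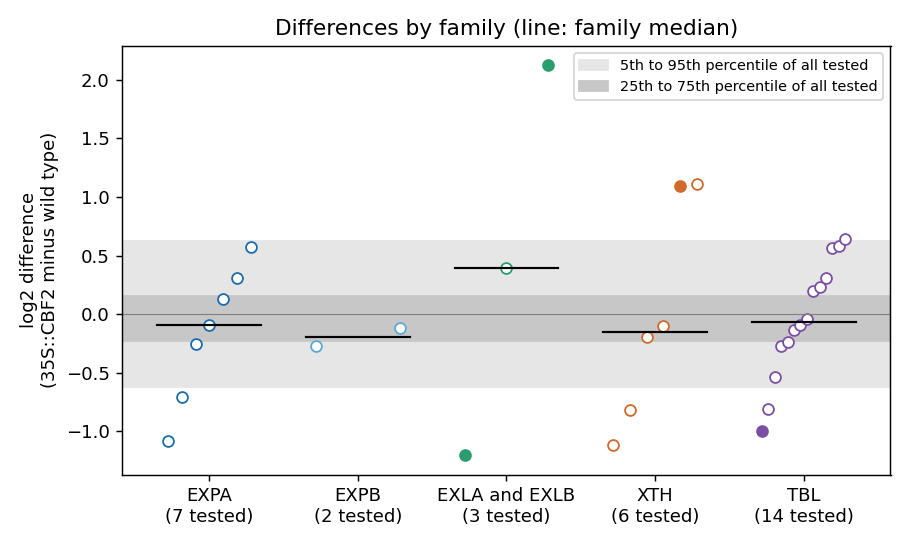
Log2 difference of 35S::CBF2 minus wild type (vertical axis) for the tested genes of each family, filled where the adjusted p was under 0.05, with a black line at the family median. The grey bands hold the central part of all tested probe sets, from -0.63 to 0.62 for the wider band (5th to 95th percentile) and from -0.23 to 0.16 for the narrower (25th to 75th); genes outside the wider band occur in EXPA, in EXLA and EXLB, in XTH and in TBL.

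Of the TBL genes, the largest family here, 14 of 22 were tested and 1 passed, TBL45, lower in 35S::CBF2 (limma; 4 had an unadjusted p under 0.05). TBL45 (AT2G30010) had signals of 293 and 217 in wild type against 133 and 120 in 35S::CBF2. All values of 35S::CBF2 lay below those of wild type, a fall of 2.00-fold (log2 difference -1.001 ± 0.20, limma adjusted p = 0.0212). The call was lost without the intensity trend (adjusted p = 0.101), without 35S::CBF2 replicate 2 (0.0904) and without the first wild type array (0.157).

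TBL37 (AT2G34070) was tight within both groups, with 120 and 121 in wild type against 70.9 and 66.8 in 35S::CBF2. The groups were apart by 1.76-fold, and the log2 difference of -0.81 narrowly missed the threshold (95% interval -1.27 to -0.36, limma adjusted p = 0.0653). With the title letter as a block it passed (0.0397).

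Genes of the mannan acetylating group had values on both sides of 0. TBL25 (AT1G01430) had signals of 269 and 215 in wild type against 355 and 368 in 35S::CBF2, without overlap (log2 difference 0.59, 95% interval 0.19 to 0.98, limma adjusted p = 0.136). TBL26 had 20.2 and 31.2 in wild type against 35.1 and 43.9 in 35S::CBF2 (log2 difference 0.64, adjusted p = 0.508). TBL23, of the same group, had 42.5 and 29.7 against 37.6 and 24.1, and its groups overlapped. Thus 0 of these 3 genes passed (limma; TBL25 alone had an unadjusted p under 0.05).

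Genes of the xylan acetylating group were TBL28, TBL30, TBL32, TBL34 and TBL35, of which 4 were tested and 0 passed (limma; 0 had an unadjusted p under 0.05). TBL32 had signals of 67.5 and 50.01 in wild type against 43.9 and 36.6 in 35S::CBF2 (log2 difference -0.54, 95% interval -1.15 to 0.08). TBL28 and TBL30, which lie next to each other in the genome, had log2 differences of 0.31 and -0.27, neither past the threshold. TBL28 had signals of 35.1 and 24.5 in wild type against 31.0 and 42.7 in 35S::CBF2. TBL30 had 53.5 and 38.5 in wild type against 37.1 and 38.2 in 35S::CBF2. TBL35 had 45.1 and 39.6 in wild type against 38.7 and 38.2 in 35S::CBF2, a log2 difference of -0.14.

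Of the TBL genes whose polymer is not given here, TBL36 (AT3G54260) had signals of 285 and 217 in wild type against 352 and 387 in 35S::CBF2. Its groups did not overlap (log2 difference 0.57, 95% interval 0.16 to 0.98, limma adjusted p = 0.173). TBL16, TBL18, TBL38 and TBL39 had log2 differences between -0.09 and 0.23, and 0 of these 4 passed. TBL39 was the steadiest, with 124 and 125 in wild type against 115 and 119 in 35S::CBF2. Over the family, the groups did not overlap in 10 of the 14 tested genes, 4 higher and 6 lower; among all tested probe sets this held for 41.7%, 17.8% higher and 23.9% lower.

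By family, the median log2 difference of tested genes was -0.10 for EXPA (7 genes), -0.19 for EXPB (2), 0.40 for EXLA and EXLB (3), -0.15 for XTH (6) and -0.07 for TBL (14). Over all members, dim ones included, the medians were -0.33 (10), -0.19 (4), 0.10 (4), -0.20 (9) and -0.12 (22). For all gene probe sets, dim ones included, the median was -0.05. The medians of EXPA, XTH and TBL changed sign in at least 1 alternative. Those of EXPB and of EXLA and EXLB kept their sign in the alternatives run, over few genes.

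Set against the wild type mean one at a time, the 35S::CBF2 arrays fell on the same side for 25 of the 32 tested genes, or 78.1%, against 66.0% of all tested probe sets. Replicate 2 lay farther from wild type than replicate 1 for 22 of the 32 (68.8%), and for 58.3% of all tested probe sets. XTH16 lay at log2 differences of -0.67 on replicate 1 and -1.57 on replicate 2, EXPA15 at -0.42 and -1.01. XTH33 lay farther from wild type on replicate 1, at -1.08 against -0.57 on replicate 2. The spike-ins of 35S::CBF2 replicate 2 were also bright, and whether they bear on these values was not tested. EXLA2, EXLB1, TBL45 and TBL37 lay on the same side of wild type by similar amounts on both arrays.

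**Figure D4:**
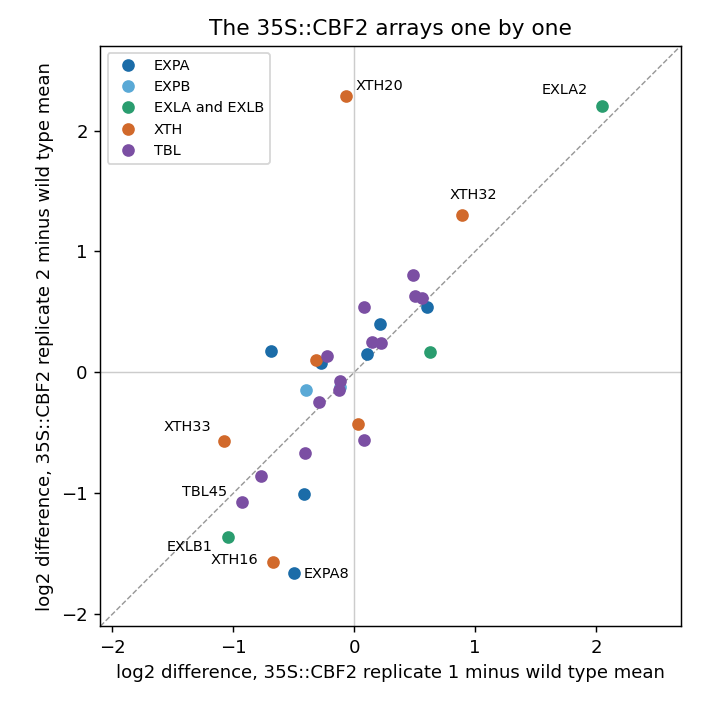
Log2 difference from the wild type mean for the 32 tested genes on 35S::CBF2 replicate 1 (horizontal axis) and on 35S::CBF2 replicate 2 (vertical axis), with the line of equal differences dashed. EXLA2 lies at 2.05 and 2.20 near that line, XTH20 at -0.07 and 2.28 far above it, and EXPA8 at -0.50 and -1.66 below it.

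The remaining 17 genes lay below the filter and were not tested: 3 EXPA, 2 EXPB, 1 EXLA, 3 XTH and 8 TBL genes. Of these, EXPA21, EXPA24, EXLA3, XTH26 and XTH29 were below the bacterial control level of 14.5 on all 4 arrays. EXPB5 had signals of 26.0 and 18.7 in wild type against 14.1 and 10.2 in 35S::CBF2, and was at least 1.52-fold lower with the dim group set to the control level. EXPA16 had 12.9 and 26.5 in wild type against 7.86 and 8.31 in 35S::CBF2, so that 1 of its 4 arrays reached the control level and no fold is given. XTH21, known from primary root growth, had 1.66 and 1.23 in wild type against 14.5 and 4.48 in 35S::CBF2, and likewise gets no fold. TBL19 had 23.6 and 17.9 in wild type against 1.03 and 16.0 in 35S::CBF2, a 15.6-fold gap between the arrays of 1 group. Its neighbour TBL21 had 13.7 and 10.3 in wild type against 17.6 and 15.0 in 35S::CBF2, and was at least 1.12-fold higher. TBL34 had 22.2 and 33.5 in wild type against 15.2 and 17.0 in 35S::CBF2, without overlap.

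**Figure D5:**
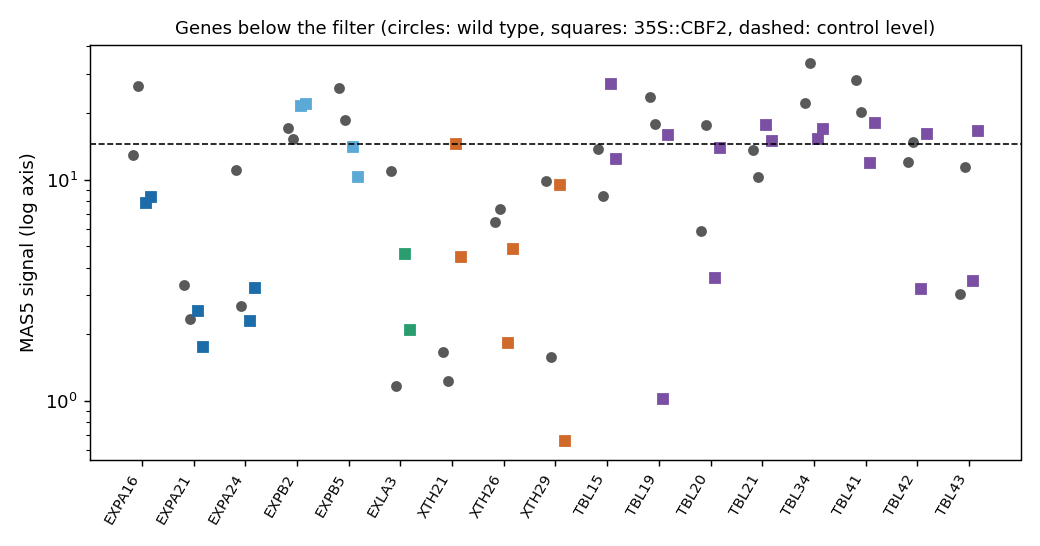
MAS5 signals (vertical axis, log scale) of the 17 genes below the filter, with wild type arrays as grey circles and 35S::CBF2 arrays as coloured squares, replicate 1 to the left of replicate 2. The dashed line at 14.5 is the highest signal of the 27 bacterial control probe sets, and the points of EXPA21, EXPA24, EXLA3, XTH26 and XTH29 all lie below it.

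Related genes under other symbols were looked up by synonym, which added 3 genes. AT2G31110, listed in the gene table as TBL40, has 2 probe sets. The brighter had signals of 107 and 107 in wild type against 58.6 and 41.0 in 35S::CBF2, and fell 2.19-fold (log2 difference -1.13 ± 0.25, limma adjusted p = 0.0304). The other had 59.1 and 37.7 in wild type against 13.6 and 20.5 in 35S::CBF2 (log2 difference -1.50, adjusted p = 0.0673), so both lay lower and only the brighter passed. The dimmer probe set entered the test through its wild type mean of 47.2. Its 35S::CBF2 mean of 16.7 lay below the filter level of 24.8, with 1 array below the control level of 14.5. EXGT-A3, listed as XTH27, had 532 and 523 in wild type against 360 and 487 in 35S::CBF2 (log2 difference -0.33, adjusted p = 0.508). AT4G30380, listed as EXLB2, was below the control level on all arrays. With these genes counted, 2 were called higher and 3 lower.

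Other wall genes were sparsely covered by named probe sets. For xyloglucan synthesis and trimming, 4 of 17 listed genes were tested, all CSLC genes, which code for synthases of the xyloglucan backbone, and 0 passed (limma; 0 had an unadjusted p under 0.05), with log2 differences from -0.41 to -0.01. COB, which is needed for oriented cellulose deposition, was the only tested gene of 16 for cellulose, with signals of 1102 and 1174 in wild type against 1119 and 1063 in 35S::CBF2. Of 21 genes for xylan and its acetylation, GUT2 (IRX10) was tested, with a log2 difference of -0.16 (adjusted p = 0.891). Of 25 gibberellin and growth regulators 3 were tested, the gibberellin receptor genes, with log2 differences of 0.40 (GID1A), 0.61 (GID1B) and -0.26 (GID1C) and 0 past the threshold (limma; 0 had an unadjusted p under 0.05). The 17 genes of pectin synthesis and the 27 of structural wall proteins had 0 named probe sets.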

How the data were processed

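The authors deposited linear signal intensity, 1 value per probe set and array. MAS5 made these values, per the submitters' processing notes, which state no version. The 2% trimmed mean was 100.0 on every array, so no further scaling was done. Names were taken from the 2016 platform annotation and brought up to date, by gene identifier, from the RefSeq table of TAIR10.1, and all 49 genes matched. No coordinates or sequences are given, since the tables used here hold no sequence. Groups were compared on log2 signal with limma 3.58.1 in R 4.3.3 (lmFit, eBayes with an intensity trend, two-sided), for the 13647 of 22746 gene probe sets whose mean log2 signal lay above the 40th percentile (geometric mean above 24.8), with Benjamini-Hochberg adjustment over all of them. The 64 control probe sets were left out. Folds are ratios of geometric means. For a group below the bacterial controls on both arrays, a bound is given where the other group lay above them on both arrays. With 2 arrays per group, the number of arrays limits the precision: SEs of the tested genes ran from 0.17 to 0.56. The procedure was tested on simulated data.

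The genes, lists, rule for naming and TBL polymer groups were chosen with earlier results of these data known. Signals of every array are given for genes past the threshold, for the 4 largest differences each way and the 3 brightest in EXPA, XTH and TBL, and for all tested EXPB, EXLA and EXLB genes; others were added after their values were seen. The alternatives were quantile normalization, centring on array medians, no filter or one at the 60th percentile, an offset of 11.6 or a floor under the signal, robust eBayes or eBayes with no trend, the letter of the titles as a block, each array left out, an adjusted p under 0.1, a 2-fold criterion, no shared probe sets, and membership by synonym.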

Additional observations from a re-analysis of the deposited data

Results flagged for a closer look

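The hybridisation spike-ins, bacterial and phage sequences that no comparison here used, were bright on 35S::CBF2 replicate 2, at 1.91 times their wild type mean (9 probe sets, geometric mean), above both wild type arrays at 0.986 and 1.01. This was singled out as a signal outside the main measurement that exceeded the controls. The spike-ins of 35S::CBF2 replicate 1 lay at 0.664 times their wild type mean. XTH20 was high and EXPA8 and XTH16 were lowest on replicate 2, while XTH33 and EXPA18 were lowest on replicate 1. Whether the spike-ins bear on these values was not tested.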

How the results depend on the processing

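All alternatives were listed as planned, though earlier results of these data were known when the genes and lists were chosen. Over the whole array 458 probe sets passed, 205 when eBayes had no trend, 229 when every pair of arrays had to differ 2-fold, and 270 to 605 when an array was left out (its partner is then assumed to vary as the other group does). Of the wall genes, 2 were called higher: 1 with no trend, 1 under the 2-fold demand, 1 to 3 when an array was left out. Likewise 2 were called lower: 1 with no trend, 0 under the 2-fold demand, 4 at an adjusted p under 0.1, 5 when the title letter was a block, 0 to 5 when an array was left out. What causes these shifts was not tested. With no filter, the family medians were -0.33 for EXPA and 0.10 for EXLA and EXLB, since dim genes were added; with the filter at the 60th percentile, 8 TBL genes remained, with a median of 0.076. With an array left out the medians ran from -0.27 to 0.15 for EXPA, -0.32 to -0.07 for EXPB, 0.17 to 0.63 for EXLA and EXLB, -0.46 to 0.16 for XTH and -0.05 to 0.03 for TBL. The median of all tested probe sets was -0.0056 after centring on array medians and -0.061 to -0.0088 with an array left out. For single genes, over the 14 refits (fewer for dim or shared probe sets), 407 of 435 values kept their sign and their side of the threshold, 8 lost the call, 9 gained it and 11 changed sign, in 8 genes that had not passed. With an array left out these 8 ranged from -0.69 to 0.17 (EXPA18), -0.27 to 0.078 (EXPA7), -0.18 to 0.44 (EXPA9), -0.56 to 0.081 (TBL23), -0.22 to 0.13 (TBL38), -0.43 to 0.033 (XTH19), -0.85 to 0.64 (XTH18) and -0.067 to 2.28 (XTH20). Outside this tally, TBL37 and XTH16 also passed at an adjusted p under 0.1, and EXLB1, TBL45 and XTH32 missed the 2-fold demand. No paired analysis was possible by replicate number, because the titles give both 35S::CBF2 samples number 1. The title letters do pair the arrays, each group holding an A and a B, though the labels do not say what a letter means. That pairing is the block above, which added EXPA15, TBL37 and XTH16 to the lower calls; the deviations of same-letter arrays correlated at 0.07. Averaging over probe sets changed nothing, since each gene has 1. Among all tested probe sets the smallest absolute log2 difference that passed was 0.62, and many larger ones did not pass. The smallest difference that could be detected was not estimated.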
